A study of Homo sapiens with 9 samples.

Results

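The genes described here encode the enzymes that make serine, pass its carbon to folate and turn homocysteine into cysteine. They are PHGDH, PSAT1 and PSPH for serine synthesis, SHMT2, MTHFD2, MTHFD1L, SHMT1 and MTHFD1 for the folate one-carbon steps, and CBS and CTH for cysteine synthesis. The 10 genes were taken by symbol, matched to the Ensembl identifiers of a gene-level count table, and all 10 were found among its 60234 genes. All 10 passed the filter on low counts, as did 15847 genes in all.

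Ramos cells, a Burkitt lymphoma B-cell line that carries no Epstein-Barr virus, were profiled by RNA-seq in 3 groups of 3 libraries: untreated at 0 h, and treated with 3 µM CHIR99021, which inhibits the kinase GSK-3, for 3 h or for 6 h. The cells of all groups grew in RPMI medium with fetal bovine serum, antibiotics and glutamine, and the labels call the triplicates biological. No untreated culture at 3 h or 6 h was analysed here, so the effect of CHIR99021 and that of time in culture cannot be told apart. The series concerns stabilisation of the MYC protein and apoptosis; protein and metabolites are not part of these data.

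In this pathway PHGDH oxidises 3-phosphoglycerate, a glycolytic intermediate, PSAT1 adds an amino group and PSPH removes the phosphate to give serine. A serine hydroxymethyltransferase then splits serine into glycine and a one-carbon unit carried by tetrahydrofolate, SHMT2 in mitochondria and SHMT1 in the cytosol. In mitochondria MTHFD2 and MTHFD1L oxidise the unit and release it as formate, which the cytosolic trifunctional MTHFD1 binds to folate again for purine and thymidylate synthesis. CBS joins serine to homocysteine and CTH cleaves the product to cysteine, the amino acid that limits glutathione synthesis. Proliferating lymphoid and tumour cells rely on these steps for nucleotides, and several of the genes are known targets of the amino acid response factor ATF4 and of MYC.

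After 6 h in CHIR99021, 8 of the 10 genes were lower and 2 were higher than in untreated cells, all 10 past an adjusted p of 0.05 in edgeR's quasi-likelihood test over all genes. Among all genes tested at 6 h against 0 h, 70.8% passed that threshold (35.7% higher and 35.0% lower). CTH fell the most, to 4.81-fold below untreated cells, and MTHFD1 rose 1.59-fold. After 3 h, 1 gene was higher, 4 were lower and 5 did not pass, beside 66.3% of all genes that passed (32.8% higher and 33.5% lower). Between 6 h and 3 h all 10 genes differed, 3 of them higher and 7 lower at 6 h, where 43.4% of all genes passed (21.5% higher and 21.9% lower). A test for any difference among the 3 times passed for all 10, and for 77.7% of all genes. The libraries did not overlap for 6 of the 10 genes at 3 h against 0 h (70.2% of all genes), for all 10 at 6 h against 0 h (71.7%) and for all 10 at 6 h against 3 h (55.2%). The median log2 fold change of the 10 genes was -0.080 at 3 h and -0.41 at 6 h against 0 h, and those of all genes tested were -0.013 and 0.017. Because RNA was taken in bulk, fewer cells that express a gene and less of its RNA per cell cannot be told apart. Treated and untreated libraries also differed in scaling: with library size alone instead of TMM factors (which equalise the bulk of genes), the median of all genes moved to -0.22 at both times, and with upper-quartile factors to -0.17 at 3 h and -0.13 at 6 h. The share of higher genes among those called at 3 h was 49.5% with TMM factors, 36.0% with upper-quartile factors and 31.8% with library size alone. At 6 h against 0 h these shares were 50.5%, 39.2% and 32.8%. With either of these scalings 0 of the 10 genes were higher and 9 lower at 3 h, and MTHFD1 alone was higher at 6 h. The values below are with TMM factors unless another scaling is named.

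**Figure D1:**
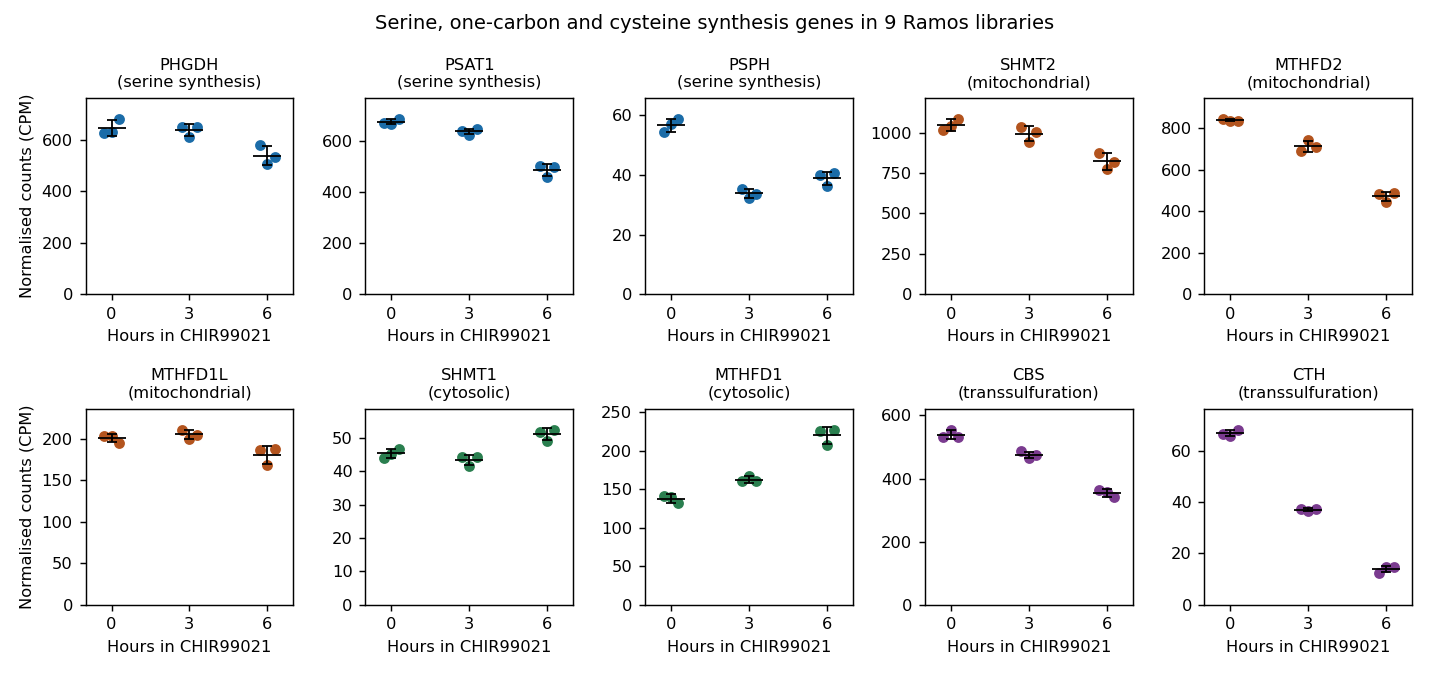
Normalised counts (CPM, counts scaled to library size and TMM factor, linear axis from 0) of the 10 genes at 0, 3 and 6 h in CHIR99021; points are the 3 libraries of each time, lines their mean and bars the SD. CTH steps down at both times, PSPH is lowest at 3 h, and MTHFD1 steps up, with 6 h libraries of 207 to 227 CPM above every library of the earlier times.

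The 250 bases before the RefSeq transcription start (GRCh38.p14) are shown for genes whose mRNA moved in different directions. They are CTH and PSAT1, 2 genes that fell at 6 h, and MTHFD1 and SHMT1, the 2 that rose with TMM factors. SHMT1 did not pass as higher with upper-quartile factors or library size alone. Whether these sequences have a part in the changes was not tested. Capitals mark matches to the motifs searched on both strands: CACGTG, the E-box that MYC and its partner MAX can bind, and CCAAT, the box bound by NF-Y, which reads ATTGG where it lies on the other strand. A further motif, TGATGNAAN, the form of the element that ATF4 binds with C/EBP proteins, has no match in these 4 windows.
CTH: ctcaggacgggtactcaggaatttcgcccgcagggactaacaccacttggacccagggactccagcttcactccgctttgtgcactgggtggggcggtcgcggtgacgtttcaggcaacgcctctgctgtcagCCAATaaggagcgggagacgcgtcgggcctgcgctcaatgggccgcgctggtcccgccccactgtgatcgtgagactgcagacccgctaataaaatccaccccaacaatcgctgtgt
PSAT1: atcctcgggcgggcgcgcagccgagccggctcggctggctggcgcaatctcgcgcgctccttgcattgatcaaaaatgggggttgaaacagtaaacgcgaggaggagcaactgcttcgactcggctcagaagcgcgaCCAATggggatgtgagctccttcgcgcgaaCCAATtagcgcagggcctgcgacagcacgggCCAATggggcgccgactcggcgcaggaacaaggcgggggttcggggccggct
MTHFD1: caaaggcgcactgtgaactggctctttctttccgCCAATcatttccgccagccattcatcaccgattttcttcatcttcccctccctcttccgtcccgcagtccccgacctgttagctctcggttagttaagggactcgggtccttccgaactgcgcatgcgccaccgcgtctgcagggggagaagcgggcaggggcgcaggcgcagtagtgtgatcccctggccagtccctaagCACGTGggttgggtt
SHMT1: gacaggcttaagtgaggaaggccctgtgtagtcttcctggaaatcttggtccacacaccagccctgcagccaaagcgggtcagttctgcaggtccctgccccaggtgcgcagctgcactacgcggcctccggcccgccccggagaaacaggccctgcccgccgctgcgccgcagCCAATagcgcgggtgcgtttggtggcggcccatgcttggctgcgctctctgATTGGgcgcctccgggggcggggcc
The CTH window is chr1:70411018-70411267 (plus strand), that of PSAT1 chr9:78296875-78297124 (plus strand), that of MTHFD1 chr14:64388103-64388352 (plus strand) and that of SHMT1 chr17:18363551-18363800 (minus strand, printed 5′ to 3′ along the gene). Counting back from the start, CACGTG lies at -15 to -10 in MTHFD1, and CCAAT lies in PSAT1 at -113, -83 and -52, in CTH at -117, in MTHFD1 at -216 and in SHMT1 at -76 and, on the other strand, -25 (first base of each match). RefSeq windows matched 8 of the 10 genes, the others being PSPH and SHMT2. CACGTG was found in 2 of the 8, MTHFD1 and MTHFD1L, beside 11.2% of the 10233 tested genes that have a window. CCAAT was found in all 8, beside 41.7% of those tested genes and 37.0% of all genes with a window. A gene was counted where any of its windows matched, and MTHFD1L and CBS have several windows. The first CBS window holds no CCAAT, so CBS counts through its other windows. TGATGNAAN was found in MTHFD1L alone of the 8, as TGATGCAAT, at -90 or -129 by the start taken, beside 2.38% of the tested genes. The rising MTHFD1 and the falling MTHFD1L both hold CACGTG. These are matches of letters, and binding was not measured.

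Of the 3 serine synthesis genes, PHGDH and PSAT1 were lowest at 6 h and PSPH was lowest at 3 h. PHGDH (ENSG00000092621, chromosome 1), which commits 3-phosphoglycerate to serine, had 626, 629 and 680 CPM in untreated cells, 649, 610 and 650 CPM at 3 h, and 577, 503 and 531 CPM at 6 h. Its 3 h libraries lay among the untreated ones, and all 3 of its 6 h libraries lay below both other groups. At 6 h PHGDH fell by 0.26 on the log2 scale against 0 h (SE 0.0579, edgeR adjusted p = 0.00101). At 3 h its log2 difference was -0.019 (95% interval -0.144 to 0.105, edgeR adjusted p = 0.786), but it passed as lower at -0.17 with upper-quartile factors (edgeR adjusted p = 0.0144) and at -0.22 with library size alone (edgeR adjusted p = 0.00204). Between 6 h and 3 h PHGDH was lower by a log2 difference of -0.24 (edgeR adjusted p = 0.00378). The 6 h calls against 0 h and against 3 h ended when the test was set against a minimum fold of 1.2 (edgeR adjusted p = 0.37 and 0.771).

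PSAT1 (ENSG00000135069, chromosome 9), the aminotransferase of the second step, had 672, 670 and 689 CPM in untreated cells, 643, 627 and 648 CPM at 3 h, and 502, 459 and 501 CPM at 6 h. The 3 groups did not overlap: the 3 h libraries sat just under the untreated ones and the 6 h libraries well under both. The 3 h difference of -0.082 did not pass (95% interval -0.184 to 0.0201, edgeR adjusted p = 0.144), whereas at 6 h PSAT1 fell by 0.47 against 0 h (SE 0.0476, edgeR adjusted p = 6.85e-07), 1.39-fold lower. Most of that difference lay between 3 h and 6 h, at -0.39 (edgeR adjusted p = 2.18e-05). The 3 h difference did pass at -0.24 with upper-quartile factors (edgeR adjusted p = 0.000294), at -0.28 with library size alone (edgeR adjusted p = 3.31e-05) and at -0.13 with genes filtered at 1 CPM in 3 libraries (edgeR adjusted p = 0.0182).

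PSPH (ENSG00000146733, chromosome 7), the phosphatase of the last step, had 54.4, 57.0 and 58.8 CPM in untreated cells, 35.4, 32.3 and 33.8 CPM at 3 h, and 39.9, 36.4 and 40.6 CPM at 6 h. Its lowest libraries were those of 3 h, and all 3 of its 6 h libraries lay between the other groups. PSPH fell by 0.75 at 3 h (SE 0.0579, edgeR adjusted p = 5.83e-08) and by 0.54 at 6 h against 0 h (SE 0.0576, edgeR adjusted p = 1.21e-06), which is 1.46-fold lower at 6 h. Between 6 h and 3 h PSPH was higher by 0.20 (edgeR adjusted p = 0.0119). That last call was lost without 3 h replicate 6 (edgeR adjusted p = 0.052) and without 6 h replicate 11 (edgeR adjusted p = 0.0529). It was also lost against a minimum fold of 1.2.

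The 3 mitochondrial folate genes of the set described here were each lower at 6 h. MTHFD2L, a paralog of MTHFD2 listed with the other folate enzymes, went the other way with TMM factors. Its log2 difference at 6 h against 0 h was 0.25 (edgeR adjusted p = 0.00602). MTHFD2L did not pass with upper-quartile factors (0.10, edgeR adjusted p = 0.238) or with library size alone (0.012, edgeR adjusted p = 0.893). SHMT2 (ENSG00000182199, chromosome 12) had 1015, 1044 and 1085 CPM in untreated cells, 1035, 942 and 1004 CPM at 3 h, and 874, 773 and 819 CPM at 6 h. The 3 h and untreated libraries overlapped, and the 6 h libraries lay below both. SHMT2 fell by 0.35 at 6 h against 0 h (SE 0.0559, edgeR adjusted p = 6.61e-05), 1.27-fold lower, and its 3 h difference was -0.077 (95% interval -0.197 to 0.0433, edgeR adjusted p = 0.242). That 3 h difference passed as lower at -0.23 with upper-quartile factors (edgeR adjusted p = 0.00178) and at -0.28 with library size alone (edgeR adjusted p = 0.000235). At 6 h against 3 h it was -0.27 (edgeR adjusted p = 0.00137), a call that ended against a minimum fold of 1.2 (edgeR adjusted p = 0.543).

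MTHFD2 (ENSG00000065911, chromosome 2), the mitochondrial dehydrogenase and cyclohydrolase that is high in embryonic and tumour cells, had 845, 835 and 837 CPM in untreated cells, 690, 742 and 710 CPM at 3 h, and 482, 445 and 488 CPM at 6 h. Its groups did not overlap and were lower at each later time. MTHFD2 fell by 0.23 at 3 h (SE 0.0492, edgeR adjusted p = 0.000842) and by 0.83 at 6 h against 0 h (SE 0.0495, edgeR adjusted p = 3.09e-09), 1.78-fold lower at 6 h. Its log2 difference between 6 h and 3 h was -0.60 (edgeR adjusted p = 7.19e-07), next in size to that of CTH. Against a minimum fold of 1.2 the 3 h call ended (edgeR adjusted p = 0.646).

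MTHFD1L (ENSG00000120254, chromosome 6), the mitochondrial formate-releasing synthetase, had the smallest log2 fold change of the 10 at 6 h against 0 h with TMM factors; with upper-quartile factors, library size alone, or relative to the median of all genes, that of SHMT1 was smaller. It had 203, 204 and 195 CPM in untreated cells, 211, 200 and 205 CPM at 3 h, and 186, 168 and 188 CPM at 6 h. Its 3 h libraries overlapped the untreated ones and its 6 h libraries lay below both. MTHFD1L fell by 0.15 at 6 h against 0 h (SE 0.052, edgeR adjusted p = 0.0186), 1.11-fold lower, and the difference to 3 h was -0.18 (edgeR adjusted p = 0.0116). The call against 0 h was lost without 0 h replicate 2 (edgeR adjusted p = 0.0522), without 6 h replicate 10 (edgeR adjusted p = 0.0904) and against a minimum fold of 1.2 (edgeR adjusted p = 0.988). The MTHFD1L call at 6 h against 3 h was also lost against that minimum fold. Its 3 h difference of 0.032 did not pass (95% interval -0.0803 to 0.143, edgeR adjusted p = 0.61), and turned to -0.12 with upper-quartile factors (edgeR adjusted p = 0.0287) and -0.17 with library size alone (edgeR adjusted p = 0.00345).

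The cytosolic folate genes of this set, MTHFD1 and SHMT1, were both higher at 6 h than at 0 h with TMM factors. SHMT1 did not pass with upper-quartile factors or library size alone. MTHFD1 (ENSG00000100714, chromosome 14) had 141, 140 and 132 CPM in untreated cells, 160, 167 and 160 CPM at 3 h, and 225, 207 and 227 CPM at 6 h. Each time lay wholly above the one before. MTHFD1 rose by 0.24 at 3 h (SE 0.0517, edgeR adjusted p = 0.00108) and by 0.67 at 6 h against 0 h (SE 0.0518, edgeR adjusted p = 4.28e-08). The 3 h call was lost with library size alone, where the difference was 0.034 (edgeR adjusted p = 0.503), with upper-quartile factors, where it was 0.084 (edgeR adjusted p = 0.111), and against a minimum fold of 1.2 (edgeR adjusted p = 0.603). The rise at 6 h passed under all 4 scalings tried, and 85.1% of all genes tested had a lower log2 fold change than MTHFD1 at 6 h against 0 h. MTHFD1 was also higher at 6 h than at 3 h, by 0.44 (edgeR adjusted p = 1.76e-05).

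SHMT1 (ENSG00000176974, chromosome 17) had 44.2, 45.3 and 46.7 CPM in untreated cells, 44.5, 41.6 and 44.2 CPM at 3 h, and 51.8, 49.1 and 52.6 CPM at 6 h. Its 6 h libraries lay above all others, while its 3 h and untreated libraries overlapped. SHMT1 rose by 0.17 at 6 h against 0 h (SE 0.0508, edgeR adjusted p = 0.00769), 1.13-fold higher, and its 3 h difference was -0.064 (95% interval -0.174 to 0.0454, edgeR adjusted p = 0.283). At 3 h it passed as lower at -0.22 with upper-quartile factors (edgeR adjusted p = 0.00162) and at -0.27 with library size alone (edgeR adjusted p = 0.000254). Against 3 h it was higher at 6 h by 0.24 (edgeR adjusted p = 0.002). Neither 6 h call of SHMT1 remained against a minimum fold of 1.2 (edgeR adjusted p = 0.941 against 0 h and 0.848 against 3 h). The direction at 6 h against 0 h depended on the scaling: it was 0.025 with upper-quartile factors (edgeR adjusted p = 0.665) and -0.064 with library size alone (edgeR adjusted p = 0.234). Relative to the median of all genes under the same scaling, SHMT1 was 0.16 higher with TMM factors, and 0.15 higher with upper-quartile factors and with library size alone.

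Both genes of cysteine synthesis fell at each time. CBS (ENSG00000160200, chromosome 21), which condenses serine with homocysteine, had 531, 555 and 532 CPM in untreated cells, 486, 464 and 473 CPM at 3 h, and 365, 356 and 341 CPM at 6 h. The groups did not overlap. CBS fell by 0.18 at 3 h (SE 0.046, edgeR adjusted p = 0.00277; 0.96 against a minimum fold of 1.2) and by 0.61 at 6 h against 0 h (SE 0.0462, edgeR adjusted p = 3.71e-08), 1.52-fold lower at 6 h. The step between 3 h and 6 h, at -0.42 (edgeR adjusted p = 8.85e-06), was larger than that between 0 h and 3 h in these means.

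CTH (ENSG00000116761, chromosome 1), the cystathionine gamma-lyase that releases cysteine, had 66.6, 65.8 and 68.2 CPM in untreated cells, 37.5, 36.3 and 37.4 CPM at 3 h, and 12.5, 14.6 and 14.6 CPM at 6 h. Within each time the libraries were close together, and the groups lay far apart. CTH fell by 0.85 at 3 h (SE 0.0577, edgeR adjusted p = 1.54e-08) and by 2.27 at 6 h against 0 h (SE 0.0621, edgeR adjusted p = 3.05e-12). Between 6 h and 3 h it was lower by 2.67-fold, a log2 difference of -1.41 (edgeR adjusted p = 3.55e-09); 2.17% of all genes were at least 2-fold lower with an adjusted p under 0.05 in that comparison. At 6 h against 0 h, 2.09% of all genes tested had a lower log2 fold change than CTH, and 13.0% were at least 2-fold lower with an adjusted p under 0.05. With TMM factors CTH was the 1 gene of the 10 past 2-fold. With library size alone MTHFD2 was also past 2-fold at 6 h against 0 h (log2 difference -1.07), and with upper-quartile factors it was at -0.98.

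**Figure D2:**
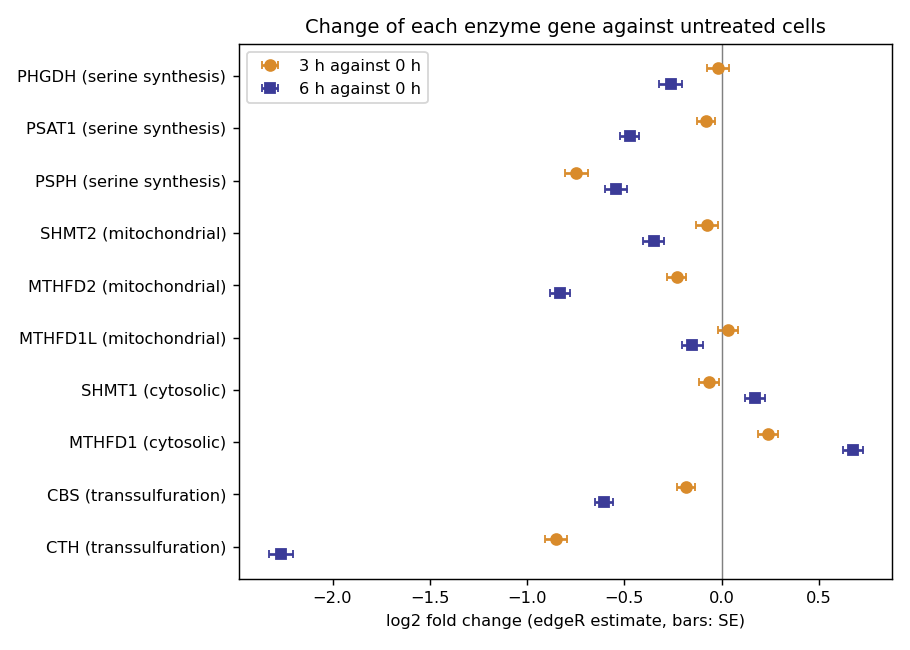
Log2 fold change of each gene at 3 h and 6 h against 0 h as estimated by edgeR with TMM factors (x axis, log2; points are estimates and bars SE), with genes listed by role. CTH reaches -2.27 at 6 h, and the 3 mitochondrial folate genes shown lie left of 0 at 6 h. The cytosolic SHMT1 (0.17, but -0.064 with library size alone) and MTHFD1 (0.67) lie right of 0 at 6 h.

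Ratios of read counts within a library do not depend on the scaling between libraries, so paired enzymes were also compared in this way; the ratios carry gene length, and their level is not a ratio of molecules. The log2 ratio of mitochondrial SHMT2 to cytosolic SHMT1 averaged 4.53 ± 0.0083, 4.52 ± 0.023 and 4.004 ± 0.061 at 0, 3 and 6 h (SD, n = 3 each). That of MTHFD2 to MTHFD1 averaged 2.61 ± 0.053, 2.14 ± 0.024 and 1.10 ± 0.0032 (SD, n = 3 each). On the linear scale, the 6 h libraries had 2.14 to 2.15 MTHFD2 reads per MTHFD1 read, and the untreated libraries 5.95 to 6.35. The mitochondrial partner was therefore lower relative to the cytosolic one in every 6 h library than in any untreated library, for both pairs and under any scaling between libraries.

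The log2 ratio of MTHFD1L to MTHFD1 averaged 0.54 ± 0.023, 0.34 ± 0.071 and -0.28 ± 0.015 at 0, 3 and 6 h (SD, n = 3 each). For CTH to CBS it averaged -3.01 ± 0.057, -3.68 ± 0.018 and -4.67 ± 0.17 (SD, n = 3 each), so CTH reads per CBS read were fewer at each later time. The 3 h libraries had the highest log2 ratio of PSAT1 to PSPH, 4.24 ± 0.051, beside 3.58 ± 0.042 at 0 h and 3.65 ± 0.016 at 6 h (SD, n = 3 each). Of 15 comparisons of 5 ratios, 14 had no overlap between groups and a two-sided exact permutation p of 0.1 (Benjamini-Hochberg adjusted 0.107), the smallest that 3 against 3 libraries allow. The share of other gene pairs whose ratios do not overlap was not computed, so that count does not set these pairs apart. Among single genes, 70.2% did not overlap at 3 h against 0 h, 71.7% at 6 h against 0 h and 55.2% at 6 h against 3 h. SHMT2 to SHMT1 at 3 h against 0 h overlapped (exact permutation p = 0.4, adjusted 0.4).

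**Figure D3:**
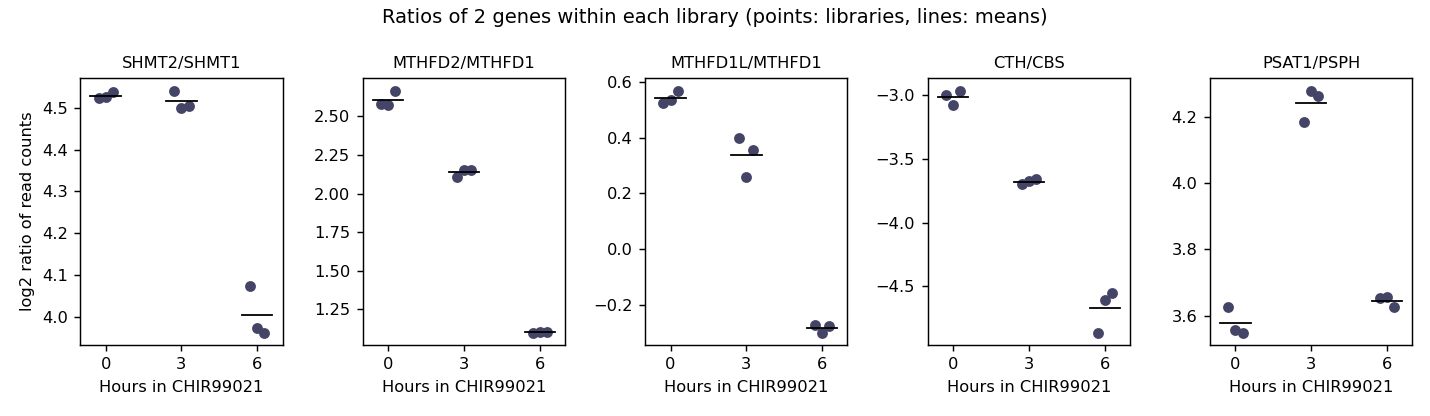
Log2 ratio of the read counts of 2 genes within each library (y axis, log2, not starting at 0) at 0, 3 and 6 h; points are libraries and lines means of 3. SHMT2 to SHMT1 is near 4.5 at 0 and 3 h and near 4.0 at 6 h, MTHFD2 to MTHFD1 and CTH to CBS step down at both times, and PSAT1 to PSPH is highest at 3 h.

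Per kilobase of the longest principal transcript, SHMT2 was the highest of the 10 at 0 h, with 413 ± 13.8 CPM per kb, followed by PSAT1 (309 ± 4.61), PHGDH (249 ± 11.7), CBS (207 ± 5.17) and MTHFD2 (188 ± 1.24; SD, n = 3 each). MTHFD1L, MTHFD1, CTH, PSPH and SHMT1 followed with 55.7, 43.9, 37.0, 26.1 and 18.4 CPM per kb, and no neighbours in this order overlapped at 0 h. At 6 h the upper 5 kept their places, though PSAT1 (223 CPM per kb) and PHGDH (208 CPM per kb) then overlapped. Lower down MTHFD1 (70.0 CPM per kb) stood above MTHFD1L (50.2 CPM per kb) at 6 h, and CTH was last with 7.71 CPM per kb. The order rests on the length used: over all annotated exons, a length chosen after seeing the data, PSAT1 led SHMT2 at 0 h and PHGDH had 70.0 CPM per kb.

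Some reads of these genes may be shared with copies or with genes on the other strand, and the strand setting of the counting is not given in the sources used here. The MTHFD2 pseudogene MTHFD2P7 had 31.6, 28.6 and 17.2 CPM at 0, 3 and 6 h and MTHFD1P1 had 3.93, 4.78 and 6.26 CPM, each far below its parent. At 6 h against 0 h MTHFD2P7 was lower by a log2 difference of -0.87, near the -0.83 of MTHFD2, and MTHFD1P1 was higher by 0.67, as was MTHFD1 (both named after their values were seen). SMCR8, opposite SHMT1 with 196 shared exon bases, had 6.46, 7.34 and 10.8 CPM at the 3 times, and ZBTB25, opposite MTHFD1 with 178 shared bases, had 44.8, 29.6 and 35.3 CPM. SMCR8 thus was higher at 6 h together with SHMT1 (log2 difference 0.73, edgeR adjusted p = 0.0041), and the part of shared reads in either result was not tested. The CBS count has a further limit, since CBSL, its near-identical copy in later genome builds, was not analysed here.

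Around the 10 genes, 73 others of the same metabolism were listed by role and 63 were tested. At 3 h against 0 h 30 of them were higher and 21 lower, beside 32.8% and 33.5% of all genes tested. With upper-quartile factors 19 were higher at 3 h, and with library size alone 15. At 6 h against 0 h 23 were higher and 27 lower, beside 35.7% and 35.0% of all genes. At 6 h against 3 h 12 were higher and 30 lower, beside 21.5% and 21.9%. These shares of all genes are with TMM factors and stand beside the counts of each list below that use them. Counts with another scaling have another background. With library size alone, 31.8% of all genes called at 3 h against 0 h and 32.8% at 6 h against 0 h were higher. With upper-quartile factors these were 36.0% and 39.2%. The lists and the 4 smallest p-values in each decide the genes named, except where stated.

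Glycolytic genes next to the branch point of serine synthesis were higher: 5 of 5 rose at 3 h and at 6 h against 0 h, with medians of 0.27 and 0.58, and 5 of 5 at 6 h against 3 h. With upper-quartile factors 3 of the 5 passed as higher at 3 h. With library size alone 2 of the 5 passed as higher at 3 h and 4 at 6 h, and none as lower. PGAM1, which takes 3-phosphoglycerate down glycolysis, averaged 67.8 ± 2.68, 102 ± 3.92 and 127 ± 6.76 CPM at 0, 3 and 6 h (SD, n = 3 each; log2 fold change 0.90 at 6 h against 0 h, edgeR adjusted p = 3.91e-09). PGK1, which makes 3-phosphoglycerate, rose by 0.58 at 6 h.

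Both main carriers of folate into the cell and into mitochondria rose. SLC19A1, the reduced folate carrier, averaged 27.4 ± 1.06, 44.2 ± 2.93 and 63.1 ± 3.11 CPM at 0, 3 and 6 h (SD, n = 3 each; 2.30-fold higher at 6 h than at 0 h, edgeR adjusted p = 6.71e-10). SLC25A32, the mitochondrial folate carrier, rose by 0.99 at 3 h and 0.93 at 6 h. Of the 4 folate transport genes tested, 2 were higher, 1 lower (FOLR2, a folate receptor) and 1 did not pass (SLC46A1, the proton-coupled folate transporter) at each of these times. With library size alone SLC46A1 passed as lower at 3 h (edgeR adjusted p = 0.0483) and at 6 h (edgeR adjusted p = 0.0114). Among 9 other folate enzymes 4 were higher and 2 lower at 3 h, and 5 higher and 1 lower at 6 h, with 4 higher and 4 lower at 6 h by library size alone. TYMS, the thymidylate synthase, rose by 0.43 and ATIC, which ends purine ring synthesis, by 0.77 at 6 h.

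The methionine cycle, which yields the homocysteine that CBS uses, had 3 of 5 genes higher and 1 lower at both 3 h and 6 h (2 higher at 3 h with library size alone). MAT2A, which makes S-adenosylmethionine, averaged 292 ± 26.3, 780 ± 29.5 and 792 ± 25.4 CPM at 0, 3 and 6 h (SD, n = 3 each; log2 fold change 1.42 at 3 h, edgeR adjusted p = 3.24e-10). MTRR, which reactivates methionine synthase, rose by 0.91 at 3 h. MTR, methionine synthase itself, had log2 differences of 0.044 at 3 h and 0.11 at 6 h that did not pass.

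Of 4 glycine cleavage genes, 1 was higher and 1 lower at each time; with upper-quartile factors 2 were lower at each time, and with library size alone 0 were higher at 3 h and 2 lower at each time. AMT, the aminomethyltransferase, averaged 8.04 ± 0.262, 2.23 ± 0.146 and 1.69 ± 0.731 CPM at 0, 3 and 6 h (SD, n = 3 each) and fell by 2.25 at 6 h, while GCSH, the lipoyl carrier protein, rose by 0.85. GLDC, the decarboxylase, had no group mean above 0.216 CPM and did not pass at either time (edgeR adjusted p = 0.893 at 3 h and 0.258 at 6 h).

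Carriers of serine and glycine split: 3 of 7 were higher and 3 lower at 3 h, and 1 was higher and 4 lower at 6 h (1 and 4 at 3 h, 0 and 6 at 6 h with library size alone). SLC38A2, a neutral amino acid transporter, averaged 103 ± 8.58, 36.4 ± 0.307 and 21.9 ± 0.359 CPM at 0, 3 and 6 h (SD, n = 3 each) and fell by 2.23 at 6 h against 0 h (edgeR adjusted p = 3.49e-12). SFXN3, a mitochondrial serine carrier, fell by 3.53 to 1.55 CPM at 6 h, against 18.0 CPM at 0 h. Its paralog SFXN1, the main such carrier, rose by 0.29 to 203 CPM at 6 h, against 165 CPM at 0 h, and did not pass with library size alone (0.057, edgeR adjusted p = 0.198). Among 7 genes that use serine, 4 were higher at 3 h (1 higher and 1 lower with library size alone), and 3 were higher and 1 lower at 6 h (3 and 3 with library size alone). SPTLC1, of sphingolipid synthesis, rose by 0.53 at 6 h, and SARS1, which charges the cytosolic serine tRNA, fell by 0.32 at 6 h.

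Genes of cysteine uptake, sulfur handling and glutathione synthesis were split at 3 h (5 of 11 higher, 5 lower, but 1 higher and 6 lower with library size alone), while 9 of 11 were lower and 2 higher at 6 h. GSS, glutathione synthetase, averaged 108 ± 2.82, 86.0 ± 2.23 and 57.3 ± 1.11 CPM at 0, 3 and 6 h (SD, n = 3 each) and fell by 0.92 at 6 h against 0 h (edgeR adjusted p = 7.05e-10). MPST, a sulfurtransferase, fell by 1.30, whereas GCLC, the catalytic subunit of the first glutathione step, rose by 0.87 at 3 h and 0.48 at 6 h. CARS1, which charges the cytosolic cysteine tRNA, rose by 0.24 at 3 h, a call lost with upper-quartile factors (0.083, edgeR adjusted p = 0.103) and with library size alone (0.034, edgeR adjusted p = 0.466), and fell by 0.62 at 6 h against 0 h.

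**Figure D4:**
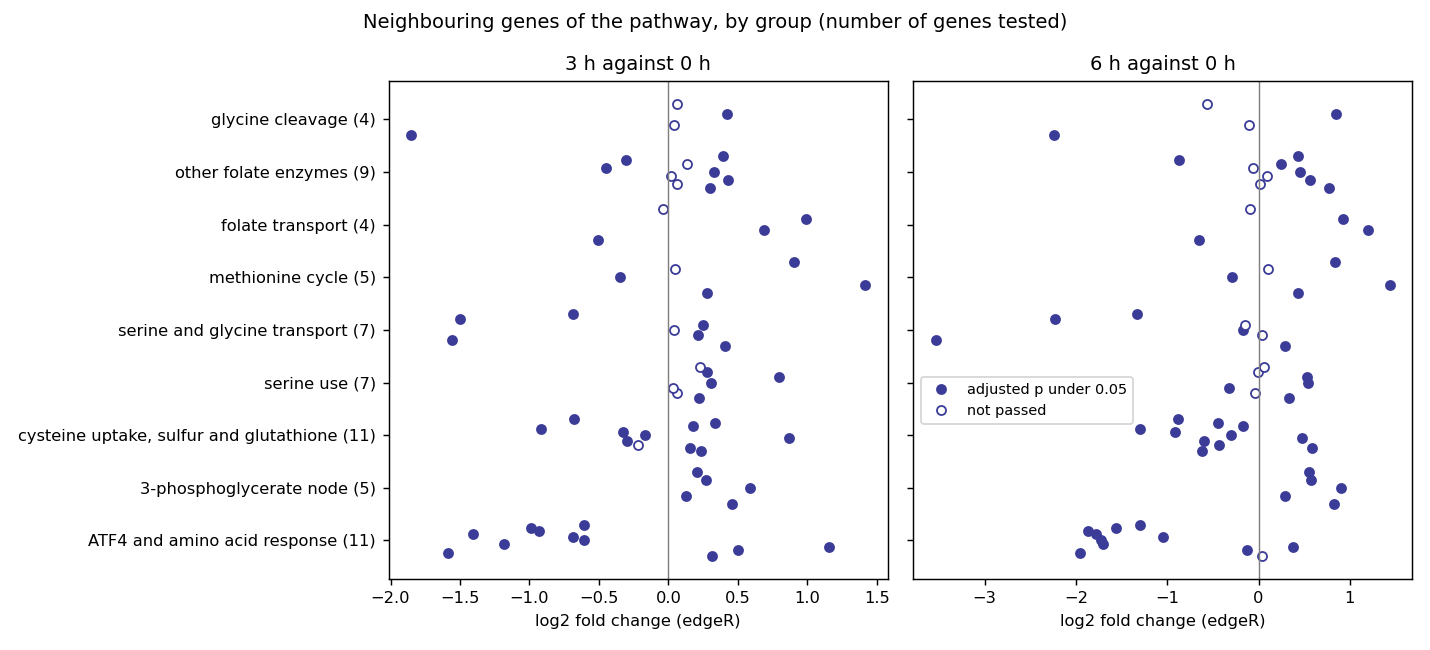
Log2 fold changes (x axis, edgeR with TMM factors, scales differ between panels) of the 63 tested neighbouring genes by role at 3 h (left) and 6 h (right) against 0 h; each point is a gene, filled where the adjusted p was under 0.05. The glycolytic genes lie right of 0 at both times, and 9 of the 11 genes of ATF4 and the amino acid response passed left of 0 at 6 h.

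ATF4, the transcription factor of the amino acid response, averaged 1048 ± 33.9, 1481 ± 12.5 and 957 ± 34.5 CPM at 0, 3 and 6 h (SD, n = 3 each). Its mRNA thus rose by 0.50 at 3 h (edgeR adjusted p = 3.68e-07) and fell by 0.13 at 6 h against 0 h (edgeR adjusted p = 0.0208). The genes of that response, ATF4 included, were higher in 3 and lower in 8 of 11 at 3 h, higher in 1 and lower in 9 at 6 h, and lower in all 11 at 6 h against 3 h, with a median of -1.56 at 6 h against 0 h. PCK2, the mitochondrial phosphoenolpyruvate carboxykinase, fell by 1.87 and SESN2, a stress-induced inhibitor of mTORC1 signalling, by 1.56 at 6 h, while ATF5 rose by 1.16 at 3 h and 0.38 at 6 h. ASNS, asparagine synthetase, was named after its values were seen: it rose by 0.31 at 3 h and its 6 h difference of 0.042 did not pass (edgeR adjusted p = 0.438), but it passed as lower at -0.11 with upper-quartile factors (edgeR adjusted p = 0.0309) and at -0.19 with library size alone (edgeR adjusted p = 0.000572). MYC mRNA averaged 558 ± 22.6, 447 ± 22.2 and 349 ± 12.01 CPM (SD, n = 3 each) and fell by 0.32 at 3 h and 0.68 at 6 h against 0 h (edgeR adjusted p = 4.50e-08).

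CTH and MTHFD1L, the genes with the largest and smallest log2 fold change at 6 h against 0 h with TMM factors (SHMT1 being the smallest with upper-quartile factors or library size alone), were set beside all 8845 named genes with a mean of at least 10 CPM by Pearson's r of log2 CPM over the 9 libraries. The libraries fall into 3 times and share their scaling, so r here describes likeness of course and has no p. Nearest to CTH were ADA2 (r = 0.998), PPM1M (0.997), NFATC4 (0.997), REXO5 (0.997) and CALCOCO2 (0.996). They differed in size: NFATC4 had a log2 fold change of -2.35 at 6 h against 0 h, close to CTH, and ADA2 one of -0.94. Nearest to MTHFD1L were GNB1 (r = 0.966), DCAF11 (0.964), EXT2 (0.962) and NDE1 (0.956), each with a log2 fold change between -0.26 and -0.16 at 6 h.

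Libraries held 46359911 to 52880876 reads assigned to genes. AXIN2, a target of the beta-catenin pathway that GSK-3 inhibition turns on, averaged 1.99 ± 0.247, 3.99 ± 0.300 and 6.62 ± 0.309 CPM at 0, 3 and 6 h (SD, n = 3 each), and rose by 1.01 at 3 h and 1.73 at 6 h. GSK3A mRNA rose by 0.68 at 6 h and GSK3B fell by 0.19 (edgeR adjusted p = 0.0302); the inhibitor acts on the proteins. All 7 B-cell markers were expressed, with summed levels of 6896 to 7394 CPM at 0 h, 7237 to 7889 CPM at 3 h and 7454 to 8397 CPM at 6 h. The 7 T and NK cell, 7 myeloid and 6 epithelial or fibroblast markers were each under 1 CPM in every library, and CD3D, CD2, CD8A, S100A8, S100A9, FCGR3A, EPCAM, KRT18, COL1A2 and DCN had no count in any.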

How the data were processed

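Ramos total RNA (RNeasy, Illumina sequencing, per the labels' protocols) was measured in 3 untreated libraries, 3 at 3 h and 3 at 6 h of CHIR99021. The authors deposited 1 table of raw read counts per Ensembl gene. GSNAP, HTSeq 0.6.0, hg19 and limma 3.30.0 are named in the submitters' processing notes; the annotation release, counting mode and strand setting are not given in the sources used here. The 5 summary rows stayed out of library sizes: reads in no gene were 15.0% to 17.6% of each library, ambiguous 2.53% to 2.76%, not unique 9.89% to 11.7%, of low quality 0.418% to 0.513% and unaligned 0.329% to 0.458%.

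The counts as deposited were filtered (filterByExpr, at least 10 counts, 15 in total), scaled by TMM and tested with edgeR 4.0.16 (R 4.3.3; robust quasi-likelihood, all 9 libraries, 1 mean per time, 6 residual degrees of freedom), with Benjamini-Hochberg adjustment over 15847 genes and a threshold of 0.05. The script was tested on simulated data. The biological coefficient of variation was 6.53%, and 0 counts allow at most 0.0567 to 0.0647 CPM (3 counts, counting error only). Within groups, 0 h replicate 3 differed more from replicates 1 and 2 (chi-square per degree of freedom 26.7 to 29.9) than they did from each other (1.70). The same held for 3 h replicate 6 (7.77 and 8.07, against 2.59) and 6 h replicate 10 (10.3 and 12.8, against 5.70). These libraries also had the largest share of reads in no gene within their groups (17.1%, 16.8% and 17.6%). Why they differed was not tested, and no pair was counted as 1 sample. P-values measure the spread between libraries of 1 cell line, which the labels call biological triplicates. Whether 0 h replicates 1 and 2 were separate cultures was not tested. The fits were repeated with limma-voom (limma 3.58.1), DESeq2 1.42.0, 3 other scalings, 2 filters, a minimum fold of 1.2, fits of the compared groups alone and leaving out each library. Symbols and principal-transcript lengths came from GENCODE by Ensembl identifier, and promoters from RefSeq (GRCh38.p14), which is not the build of the counts; figures used matplotlib 3.10.9.

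The 10 genes, the neighbouring lists and the motifs were chosen with earlier results of these data known. Named were the 10 genes, MYC, ATF4, AXIN2, GSK3A and GSK3B whatever their values, the 4 genes of smallest p per neighbouring list and comparison, and the 5 genes most like CTH and like MTHFD1L; some genes that this rule names are not reported here.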

Additional observations from a re-analysis of the deposited data

Results flagged for a closer look

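All 10 enzyme genes are listed here because the effect at 6 h differed from that at 3 h, tested as 6 h against 3 h (edgeR, adjusted p under 0.05 over all genes, as for 43.4% of all genes). The effect at 6 h minus that at 3 h was, on the log2 scale, -0.24 for PHGDH, -0.39 for PSAT1, 0.20 for PSPH, -0.27 for SHMT2, -0.60 for MTHFD2, -0.18 for MTHFD1L, 0.24 for SHMT1, 0.44 for MTHFD1, -0.42 for CBS and -1.41 for CTH. With TMM factors PSPH stood apart in direction: it was the gene that was lower at both times and less so at 6 h. With library size alone SHMT1 was also lower at both times and less so at 6 h. Its values were then -0.27 at 3 h and -0.064 at 6 h, the latter not passing (edgeR adjusted p = 0.234). The PSPH call at 6 h against 3 h was lost without 3 h replicate 6, without 6 h replicate 11 and against a minimum fold of 1.2.

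In 4 neighbouring genes both effects passed with opposite signs under TMM factors, higher at 3 h and lower at 6 h than at 0 h. With library size alone the 3 h rise of ATF4 remained at 0.30 (edgeR adjusted p = 2.63e-05), while CARS1 (0.034), SLC7A11 (0.14) and SLC3A2 (-0.023) did not pass at 3 h. The effect at 6 h minus that at 3 h was -0.78 for SLC7A11, the cystine exchanger, -0.35 for SLC3A2, its heavy chain, -0.86 for CARS1 and -0.63 for ATF4. SLC7A11 averaged 53.2 ± 10.8, 67.2 ± 3.46 and 39.1 ± 3.61 CPM at 0, 3 and 6 h (SD, n = 3 each). SLC7A11 and SLC3A2 were named after their values were seen.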

How the results depend on the processing

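Of 540 values of single enzyme genes under an alternative, 507 kept their direction and their side of the threshold. Of the other 33, 14 came from the scaling, 11 from a minimum fold, 6 from leaving out a library and 2 from the 1 CPM filter. With upper-quartile factors, 0 of the 10 genes were higher and 9 lower at 3 h, 1 was higher at 6 h, and 19 neighbouring genes were higher at 3 h (30 with TMM factors). With library size alone, the counts were 0, 9, 1 and 15, and 3656 of all genes were higher at 6 h against 0 h (5660 with TMM factors). MTHFD1L at 3 h turned to -0.12 with upper-quartile factors, -0.17 with library size alone and -0.014 with the 1 CPM filter, and SHMT1 at 6 h to -0.064 with library size alone. Against a minimum fold of 1.2, 0 of the 10 genes were higher and 2 lower at 3 h, 1 higher at 6 h, and 1 higher and 4 lower at 6 h against 3 h. Under that fold 14 neighbouring genes were higher at 3 h, and 3 higher and 15 lower at 6 h against 3 h. Of all genes, 3453 were higher at 3 h, and 1136 higher and 1368 lower at 6 h against 3 h, where 5201, 3402 and 3469 passed without it; the higher bar itself lowers these counts. The cause of the other shifts was not tested beyond the moved medians.

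Leaving out 1 library, the 3 h difference of PHGDH ranged from -0.048 to 0.016, and the calls of MTHFD1L at 6 h and of PSPH at 6 h against 3 h were the ones lost. DESeq2 and limma-voom gave the same counts for the 10 genes as edgeR in all 3 comparisons. No paired analysis was possible because the labels give the groups no shared replicate numbers. Depth was not limiting for these genes, the lowest of which had 12.5 CPM in a library, but 3 libraries a group limit the exact test of a ratio to 0.1. One cell line, without time-matched untreated cells, without protein or metabolites, bounds what the values describe.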
